A study of Mus musculus with 13 samples.

Results

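The EphB receptors and their ephrin-B ligands were followed in mouse enterocytes with and without casein kinase Iα. The members were set as a list of 4 receptors (Ephb2, Ephb3, Ephb4 and Ephb6) and 2 ligands (Efnb1 and Efnb2), each read from the probe set that carries its symbol alone. Of these 6 genes, 5 had such a probe set, 1 each, and all 5 were among the 16721 genes tested out of 19938 with a probe set of their own. The receptor Ephb2 was not analysed here.

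EphB receptors are receptor tyrosine kinases, and ephrin-B ligands are transmembrane proteins, so that both sides of a cell contact can signal when they meet. In the intestinal epithelium the receptors are targets of Wnt/β-catenin signalling and are most abundant near the crypt base, while ephrin-B ligands are most abundant in the differentiated cells above. The contact between the opposing gradients keeps cells sorted along the crypt axis, and EphB3 is needed to hold Paneth cells at the base.

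Casein kinase Iα (CKIα) belongs to the complex that marks β-catenin for degradation, and its gene was deleted in the gut. The control groups also carry the deletion, on 1 allele: CKIα Het, CKIα Het/p21 KO and CKIα Het/p53 KO. The matching groups with the homozygous deletion are CKIα KO, CKIα KO/p21 KO and CKIα KO/p53 KO. All are labelled as enterocytes of mice on the 129/SVJ background, and no group is free of the CKIα deletion. Each group had 2 arrays, called biological replicates in the labels, and the Cre driver, the age and the sex are not given in the labels used here. A 13th array was left out of the fit behind the values below, except where it is said to be added to CKIα KO/p53 KO, since its title places it with CKIα KO/p53 KO as replicate 3 but its genotype label names a CKI knockout alone. Values are log2 intensities, so a difference of 1 is a doubling, and they compare arrays for 1 gene, not 1 gene with another. Ranks among an array's probe sets, where given, are only a rough guide to how bright a probe set is.

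Medians of the 13 arrays lay between 4.96 and 5.12. The absorptive enterocyte markers had median ranks between the 92.2 and 100 percentiles of an array's probe sets, whereas the 10 endothelial markers ranked between 12.3 and 49.5 and the lymphocyte markers between 25.8 and 94.5. The RNA is from bulk cells, in which fewer cells of a type and less RNA per cell cannot be told apart. Each group paired an array low in Xist, an RNA made from the silenced X, with a high one: replicate 1 arrays read at most 3.94 and replicate 2 arrays at least 8.91. Xist was picked with its values known, and the labels do not give sex.

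Ephb3, the receptor of the crypt base, had the widest range of the members, 2.69 over the 12 arrays. It read 5.21 and 5.46 in CKIα Het, 5.54 and 5.42 in CKIα Het/p21 KO, and 5.58 and 5.70 in CKIα Het/p53 KO. On these 6 control arrays it was thus confined to a narrow band. The CKIα KO arrays read 5.50 and 7.07, the CKIα KO/p21 KO arrays 6.45 and 7.90, and the CKIα KO/p53 KO arrays 7.67 and 7.51. Of the 6 arrays with homozygous deletion, 5 lay above every control array, and CKIα KO replicate 1 lay among the controls. The 2 groups of 6 arrays therefore overlapped by 1 array, and 11.2% of the tested genes had at least 5 of these 6 arrays above all 6 controls.

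**Figure D1:**
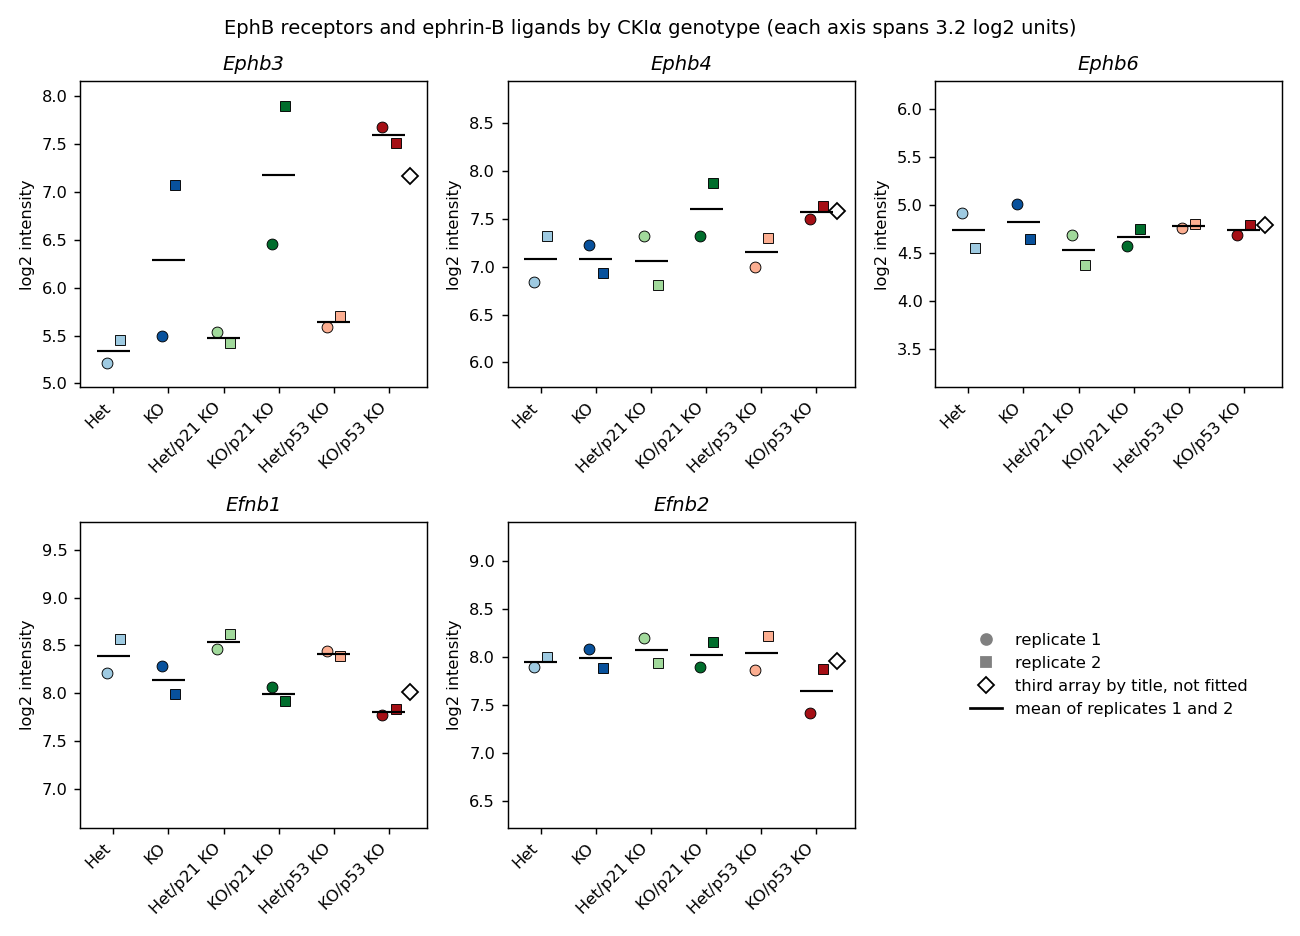
Log2 intensity (vertical axis) of the 5 measured members on each array, by genotype group (horizontal axis). Circles are replicate 1, squares replicate 2, bars their mean, and the open diamond is the array whose labels disagree. Ephb3 lies between 5.21 and 5.70 on the CKIα Het arrays and reaches 7.90 after homozygous deletion, and Efnb1 falls from as high as 8.61 to as low as 7.77.

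With p53 knocked out, Ephb3 rose 3.86-fold in CKIα KO/p53 KO against CKIα Het/p53 KO (log2 1.95 ± 0.50, SE, n = 2 per group, limma adjusted p = 0.0279). In this comparison limma called 17.8% of the tested genes, 11% higher and 6.82% lower; after a further quantile normalization the share of calls that were higher went from 61.8% to 50.7%. Of the 5 measured members 1 was called higher and 1 lower, a count read against that background. Without any one of the 4 arrays of this comparison the Ephb3 value stayed between 1.87 and 2.03, but the adjusted p rose to between 0.102 and 0.122. With p21 knocked out Ephb3 was at 1.70 ± 0.50 (adjusted p = 0.0898) and did not pass, beside 1.97% of genes called (1.46% higher and 0.514% lower; 73.9% of calls higher, or 63.6% after quantile normalization). Its value there was 2.42 without CKIα KO/p21 KO replicate 1 and 0.97 without replicate 2. With both p53 and p21 present it was at 0.95 ± 0.50 (adjusted p = 0.633), beside 0.0239% of genes called. That value came to 1.74 without CKIα KO replicate 1 and to 0.16 without replicate 2.

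Averaged over the 3 backgrounds, Ephb3 rose 2.89-fold with CKIα loss (log2 1.53 ± 0.29, n = 6 per genotype, limma adjusted p = 0.00606), and it was higher in the CKIα KO group mean of each background. Here 24.4% of the tested genes were called, 15.5% higher and 8.96% lower, against 1 higher and 1 lower of the 5 members; 63.3% of calls were higher, or 51.8% after quantile normalization. The average stayed between 1.27 and 1.80 when each array was left out in turn, with adjusted p between 0.000699 and 0.0219. The CKIα effect on Ephb3 was not shown to differ between backgrounds. The difference between the effect without p53 and that with both genes present was 1.00 (95% interval -0.59 to 2.58, limma adjusted p = 0.519), and for p21 it was 0.75 (-0.84 to 2.33, adjusted p = 0.807). With each array left out in turn these differences ranged from 0.21 to 1.79 for p53 and from -0.040 to 1.54 for p21. In the p53 test limma called 0.0179% of genes (0.012% higher, 0.00598% lower), and in the p21 test 0 genes, with 1359 at an unadjusted p under 0.05.

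The upstream sequences of Ephb3 and Efnb1 are shown because these were the members that passed a test and they moved in opposite directions. They are the 250 bases before each RefSeq start, on build GRCm38.p6, plus strand, at chr16:21204545-21204794 and chrX:99135811-99136060, with CG dinucleotides in capitals.
Ephb3: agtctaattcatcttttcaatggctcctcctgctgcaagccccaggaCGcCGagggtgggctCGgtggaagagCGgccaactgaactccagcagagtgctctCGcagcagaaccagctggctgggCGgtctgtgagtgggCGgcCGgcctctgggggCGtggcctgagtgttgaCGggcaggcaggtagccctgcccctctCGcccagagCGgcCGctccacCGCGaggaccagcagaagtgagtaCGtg
Efnb1: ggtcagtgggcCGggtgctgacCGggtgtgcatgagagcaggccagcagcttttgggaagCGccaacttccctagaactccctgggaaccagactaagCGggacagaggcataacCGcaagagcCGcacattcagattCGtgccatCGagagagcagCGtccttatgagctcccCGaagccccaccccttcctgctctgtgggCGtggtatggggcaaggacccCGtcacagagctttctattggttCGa
The Ephb3 window holds 16 CG dinucleotides and the Efnb1 window 13, against a median of 6 over 32851 RefSeq windows of this length, and the GC share is 65.6% and 60% against a median of 52.4%. The word bound by TCF/LEF factors, the DNA partners of β-catenin, was searched on both strands as CAAAG directly after 2 bases that are each A or T. None of the 6 members' windows holds one of these words, Ephb2 included, while 14.8% of all windows do. This says only that the letters are not in these 250 bases.

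Ephb4, a receptor known for its role in venous endothelium and also made by crypt cells, was higher on some arrays with homozygous deletion. It read 6.84 and 7.32 in CKIα Het, 7.33 and 6.80 in CKIα Het/p21 KO, and 6.99 and 7.30 in CKIα Het/p53 KO. The counterparts read 7.23 and 6.94 in CKIα KO, 7.32 and 7.87 in CKIα KO/p21 KO, and 7.50 and 7.64 in CKIα KO/p53 KO. Of the 6 arrays with homozygous deletion, 3 lay above every control array: CKIα KO/p21 KO replicate 2 and both CKIα KO/p53 KO arrays. The share of all tested genes with this pattern was not counted. The log2 difference was 0.00 ± 0.25 with both genes present, 0.53 ± 0.25 without p21 and 0.42 ± 0.25 without p53. The average was 0.32 ± 0.15 (95% interval -0.01 to 0.65, limma adjusted p = 0.139) and did not pass. The Ephb4 effect was not shown to differ between backgrounds. The difference was 0.42 for p53 (95% interval -0.38 to 1.22, limma adjusted p = 0.592) and 0.53 for p21 (-0.27 to 1.33, adjusted p = 0.722).

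Beside Ephb4, which was itself not called, no endothelial marker was called higher. The 10 endothelial markers ranked between the 12.3 and 49.5 percentiles of an array's probe sets, so a lack of calls says little. Of 9 tested markers 0 were called by limma without p21 and 0 in the average (1 each at an unadjusted p under 0.05), and Eng was called lower without p53 (-0.44 ± 0.13, adjusted p = 0.0473). Without p53, 3 had an unadjusted p under 0.05: Eng, Kdr at -0.44 (adjusted p = 0.0514) and, in the other direction, Cdh5 at 0.98 (adjusted p = 0.0819). Of all 16721 tested genes, 3881 had an unadjusted p under 0.05 by limma without p21, 6347 in the average and 5773 without p53. The Cdh5 value rests mainly on CKIα KO/p53 KO replicate 2, which read 5.64 beside 4.21 on replicate 1. The mean level of the 9 markers on an array ranged from 4.26 to 4.34 in CKIα Het/p21 KO and from 4.26 to 4.37 in CKIα KO/p21 KO. It ranged from 4.46 to 4.67 in CKIα Het/p53 KO and from 4.40 to 4.57 in CKIα KO/p53 KO.

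Ephb6, a family member whose kinase domain lacks catalytic activity, was dim and flat. Its probe set ranked between the 39.2 and 48.6 percentiles of the arrays, below the middle of all probe sets. It read from 4.38 to 4.92 on the control arrays and from 4.57 to 5.01 on the arrays with homozygous deletion, and the ranges overlapped, with 1 of the latter above every control array. The average difference was 0.06 ± 0.11 (95% interval -0.18 to 0.30, limma adjusted p = 0.711).

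Efnb1, the ligand ephrin-B1 and the X-linked member, was lower after CKIα loss. It read 8.21 and 8.57 in CKIα Het, 8.47 and 8.61 in CKIα Het/p21 KO, and 8.44 and 8.39 in CKIα Het/p53 KO. After homozygous deletion it read 8.29 and 7.99 in CKIα KO, 8.06 and 7.91 in CKIα KO/p21 KO, and 7.77 and 7.83 in CKIα KO/p53 KO. As for Ephb3, 5 of these 6 arrays lay beyond every control array, here below, and CKIα KO replicate 1 did not. Of the tested genes, 6.52% had at least 5 of the 6 below all 6 controls. Over the replicate 1 arrays it ranged from 7.77 to 8.47 and over the replicate 2 arrays from 7.83 to 8.61. Both ranges pool the CKIα genotypes, so their overlap says nothing about the arrays parted by Xist. A part of sex in the Efnb1 values was not tested.

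Without p53, Efnb1 fell 1.53-fold (log2 -0.61 ± 0.16, n = 2 per group, limma adjusted p = 0.0307). As for Ephb3, leaving out any one of the 4 arrays kept the value, between -0.64 and -0.58, and ended the call, with adjusted p from 0.1 to 0.127. Without p21 it was at -0.55 ± 0.16 (adjusted p = 0.0888), and with both genes present at -0.25 ± 0.16 (adjusted p = 0.717). The average was a 1.39-fold fall (-0.47 ± 0.09, n = 6 per genotype, adjusted p = 0.00734), which passed with each array left out in turn, between -0.53 and -0.41. Its effect was not shown to differ between backgrounds, with a difference of -0.36 for p53 (95% interval -0.87 to 0.15, adjusted p = 0.471) and of -0.30 for p21 (-0.81 to 0.21, adjusted p = 0.754).

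Efnb2, the ligand ephrin-B2, which also marks arterial endothelium, did not pass in any comparison. The control arrays read from 7.87 to 8.21 and the arrays with homozygous deletion from 7.41 to 8.16. Only CKIα KO/p53 KO replicate 1, at 7.41, lay below every control array, and its partner read 7.87. The difference was 0.04 ± 0.20 with both genes present, -0.04 ± 0.20 without p21 and -0.40 ± 0.20 without p53 (95% interval -0.84 to 0.05, limma adjusted p = 0.185). The interval of the average ran from -0.39 to 0.12.

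**Figure D2:**
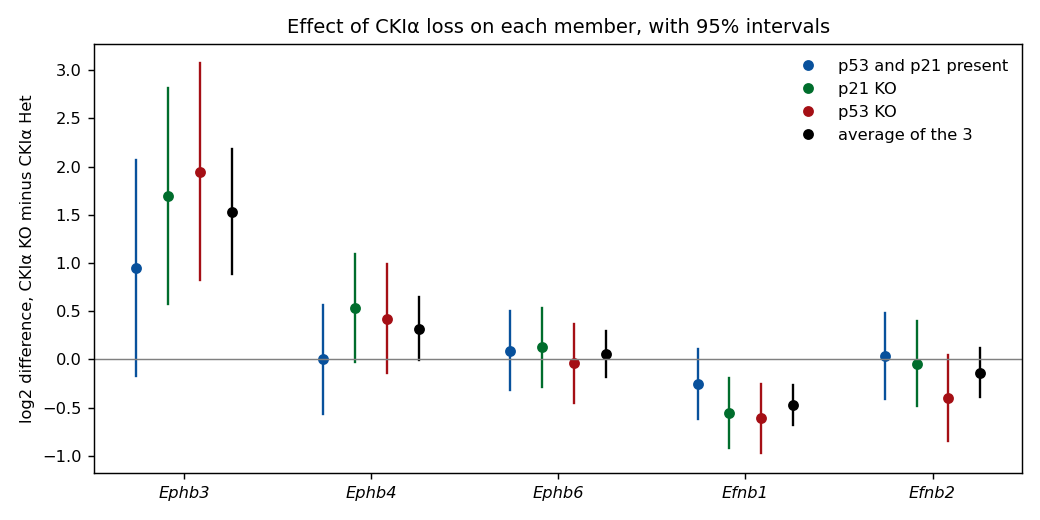
Log2 difference of CKIα KO minus CKIα Het (vertical axis) for each member (horizontal axis) in each of the 3 backgrounds and averaged; points are estimates of the limma fit and lines their 95% intervals. The average interval lies above 0 for Ephb3 (0.89 to 2.18) and below 0 for Efnb1 (-0.68 to -0.26), and holds 0 for the other members.

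The receptor Ephb3 and the ligand Efnb1 thus parted on the same arrays. The 6 control arrays and CKIα KO replicate 1 had Ephb3 at or below 5.70 and Efnb1 at or above 8.21. The other 5 arrays with homozygous deletion had Ephb3 at or above 6.45 and Efnb1 at or below 8.06. The array whose labels disagree read 7.17 for Ephb3 and 8.02 for Efnb1, within the range of these 5 arrays for both genes.

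**Figure D3:**
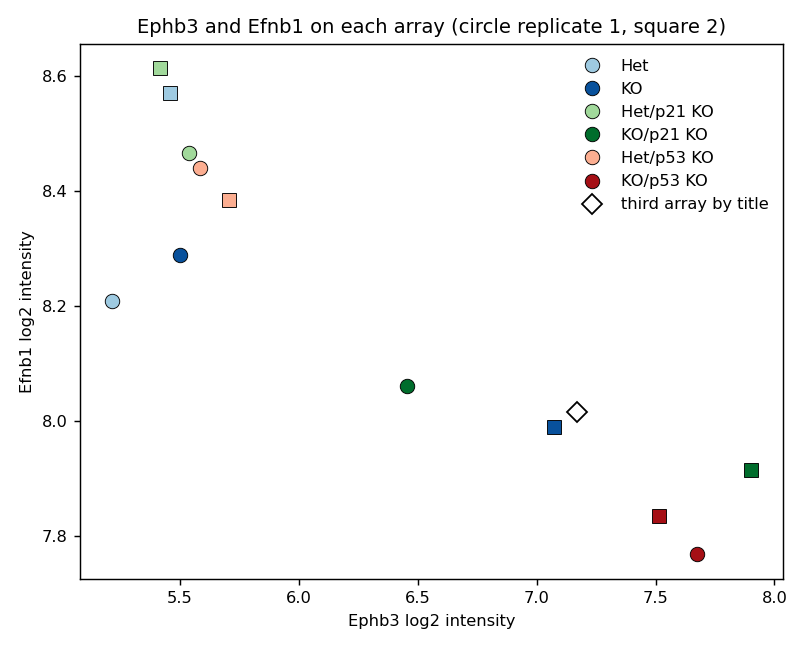
Efnb1 log2 intensity (vertical axis) against Ephb3 log2 intensity (horizontal axis), 1 point for each array, coloured by group; circles are replicate 1, squares replicate 2 and the open diamond is the array whose labels disagree. The control arrays and CKIα KO replicate 1, at 5.50 and 8.29, sit at the upper left and the other arrays with homozygous deletion at the lower right.

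Loss of p53 or p21 was also compared at a fixed CKIα genotype, and no member passed. In CKIα KO/p53 KO against CKIα KO, Ephb3 was at 1.31 ± 0.50 (limma adjusted p = 0.165) and Efnb1 at -0.34 ± 0.16 (adjusted p = 0.253), where 0.694% of genes were called (0.466% higher, 0.227% lower). In CKIα KO/p21 KO against CKIα KO, where 0.0359% of genes were called (0.0239% higher, 0.012% lower), Ephb3 was at 0.89 ± 0.50 (adjusted p = 0.506), Ephb4 at 0.52 ± 0.25 (adjusted p = 0.45) and Efnb1 at -0.15 ± 0.16 (adjusted p = 0.735). With each array left out in turn, the Ephb3 values ranged from 0.52 to 2.09 for p53 loss and from 0.10 to 1.68 for p21 loss. With 1 functional CKIα allele, the members lay between 0.02 and 0.31 for p53 loss and between -0.20 and 0.15 for p21 loss. Of the 5 members 0 had an unadjusted p under 0.05 in either of these limma comparisons, where 0% and 0.00598% of genes were called.

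The other Eph receptors and ephrins were taken as a list of 16 genes, of which 13 were tested; Epha3, Epha5 and Epha6 did not pass the filter on dim genes. Averaged over the backgrounds, limma called 1 of these 13 higher and 1 lower, beside 24.4% of all tested genes called, with a list median of -0.06 against -0.03 over all tested genes. Epha1, an epithelial receptor, fell 2.15-fold (-1.11 ± 0.21, adjusted p = 0.0063) and Epha4, a receptor that binds ligands of both the A and B classes, rose 2.65-fold (1.41 ± 0.31, adjusted p = 0.0107). Without p53 only Epha1 passed (-1.72 ± 0.36, adjusted p = 0.0153), and Epha4 was at 1.72 ± 0.53 (adjusted p = 0.0512), which passed with an intensity trend (adjusted p = 0.0489) and with the third array added (adjusted p = 0.0364). Without any one of the 4 arrays of that comparison Epha1 was no longer called (adjusted p from 0.0647 to 0.0826).

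Epha4 read 4.90 and 5.03 in CKIα Het, 5.30 and 4.62 in CKIα Het/p21 KO, and 5.04 and 4.86 in CKIα Het/p53 KO. With homozygous deletion it read 5.03 and 6.07 in CKIα KO, 5.93 and 7.82 in CKIα KO/p21 KO, and 6.86 and 6.47 in CKIα KO/p53 KO. As for Ephb3, CKIα KO replicate 1 lay among the controls and the other 5 arrays above them. Epha1 ranged from 8.37 to 9.22 on the control arrays and from 7.0 to 8.38 on the others, with its lowest values on CKIα KO/p53 KO replicates 1 and 2 (7.0 and 7.14) and CKIα KO/p21 KO replicate 2 (7.16). With p21 knocked out Epha4 was at 1.92 ± 0.53 (adjusted p = 0.0794) and Epha1 at -1.0 ± 0.36 (adjusted p = 0.14). Without CKIα KO/p21 KO replicate 1 the values were 2.86 and -1.61. Replicates 1 and 2 of that group stood apart, at 5.93 and 7.82 for Epha4 and at 8.38 and 7.16 for Epha1. Leaving out replicate 2 instead therefore makes both differences smaller in size. With both genes present Efna2 (-0.44 ± 0.15, adjusted p = 0.386) and Efna1 (-0.79 ± 0.41, adjusted p = 0.632) had the smallest p of the list.

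**Figure D4:**
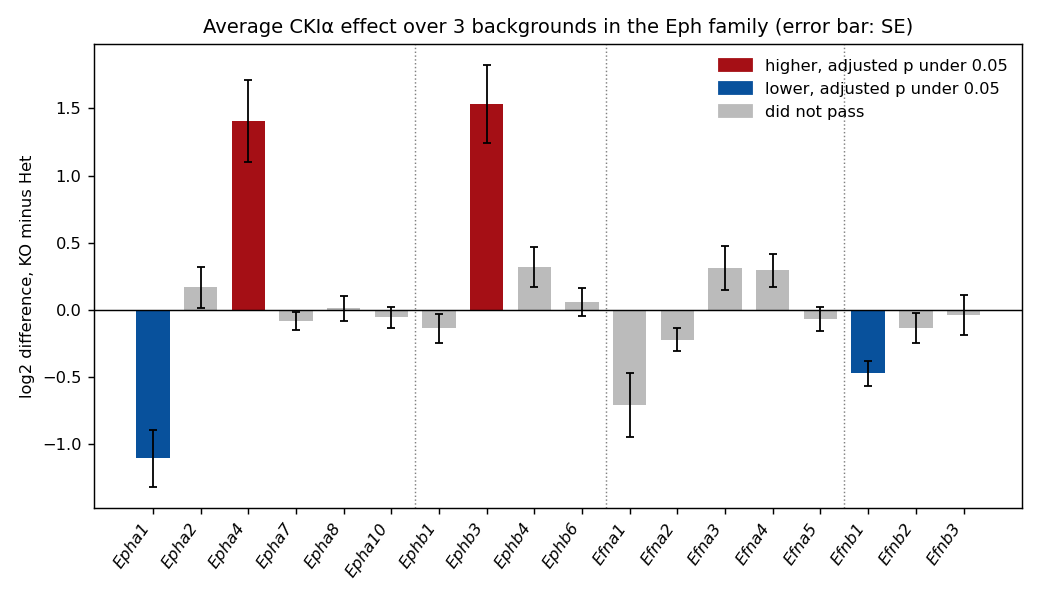
Average log2 difference of CKIα KO minus CKIα Het over 3 backgrounds (vertical axis) for the 18 tested Eph receptors and ephrins (horizontal axis), grouped as EphA, EphB, ephrin-A and ephrin-B; bars start at 0 and error bars are SE of the limma fit. Epha4 and Ephb3 are higher (1.41 and 1.53), Epha1 and Efnb1 lower (-1.11 and -0.47), and the grey bars did not pass.

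Genes that carry EphB and ephrin-B signals inside the cell were a list of 33, of which 30 were tested. Without p53, 2 of 30 were called higher and 2 lower, beside 17.8% of all tested genes called, and in the average 4 and 4, beside 24.4%. These counts are not set apart from that background. The list had medians of 0.01 and -0.03 against -0.06 and -0.03 over all tested genes. Without p53 the called genes were the signalling protein Vav2 (-0.90 ± 0.19, adjusted p = 0.0156), the kinase Abl2 (0.82 ± 0.22, adjusted p = 0.0312), the PDZ protein Pick1 (0.71 ± 0.19, adjusted p = 0.0317) and the polarity protein Pard6b (-0.64 ± 0.19, adjusted p = 0.0435). The calls of Abl2 and Pick1 were lost after a further quantile normalization (adjusted p = 0.0534 and 0.0615), and each of the 4 was lost when some single arrays were left out. In the average, the smallest p values were those of Pick1 (0.55 ± 0.11), Pard6b (-0.51 ± 0.11), Vav2 (-0.49 ± 0.11) and Adam10, the protease that cleaves ephrins and E-cadherin at Eph contacts (0.51 ± 0.11, adjusted p = 0.0107). With p21 knocked out 0 of 30 were called and 4 had an unadjusted p under 0.05 by limma, beside 3881 of all 16721 tested genes. Among these 4 listed genes Pard6b was at -0.74 ± 0.19 (adjusted p = 0.066) and Adam10 at 0.68 ± 0.19 (adjusted p = 0.0824). These values were -0.95 and 1.00 without CKIα KO/p21 KO replicate 1, and leaving out replicate 2 instead makes them smaller in size. With both genes present 0 were called and 2 had an unadjusted p under 0.05 by limma, Yes1 (-0.45 ± 0.14) and Pick1 (0.53 ± 0.19). Of all 16721 tested genes, 1520 had such a p there.

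Other targets of Wnt/β-catenin signalling were mostly higher. Of 16 tested, 12 were called higher without p53 and 14 in the average, beside 11% and 15.5% of all tested genes. With 0 called lower, the list had medians of 1.96 and 1.46 against -0.06 and -0.03 over all tested genes. The feedback inhibitor Axin2 had 7.15 and 7.18 in CKIα Het and 8.17 and 8.75 in CKIα KO. Both CKIα KO arrays were thus above the controls for Axin2 (at most 7.22), unlike for Ephb3, although CKIα KO replicate 1 was the lowest of the 6 arrays for both genes. Axin2 read 8.75 and 9.35 in CKIα KO/p21 KO and 9.20 and 9.23 in CKIα KO/p53 KO. In the average it was at 1.86 ± 0.13, Rnf43 at 1.59 ± 0.18, Nkd1 at 1.71 ± 0.24 and Cd44 at 2.34 ± 0.34. Without p53, Prox1, a transcription factor, was at 3.32 ± 0.51 and lost its call with the third array added (adjusted p = 0.0507). The calls of Cd44, Prox1, Nkd1 and Rnf43 there were each lost when some single arrays of that comparison were left out, while Axin2 kept its call. Their lowest values in these fits were 2.66 for Cd44, 2.95 for Prox1, 3.17 for Nkd1 and 2.10 for Rnf43. Without p21 2 targets were called, Axin2 (1.92 ± 0.23, adjusted p = 0.014) and Rnf43 (1.72 ± 0.32, adjusted p = 0.0434), and these calls were lost in 3 and 9 of the 12 fits that each left out 1 array. With both genes present 0 were called and 6 had an unadjusted p under 0.05 by limma, beside 1520 of all 16721 tested genes. The smallest p values of the list there were those of Axin2 (1.3 ± 0.23, adjusted p = 0.106) and Rnf43 (0.91 ± 0.32, adjusted p = 0.4). Axin2 passed there without CKIα KO replicate 1 (adjusted p = 0.0395) and without either CKIα KO/p21 KO array (adjusted p = 0.0253).

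Markers of cell types that carry these proteins also moved, beside 11% of all tested genes called higher and 6.82% lower without p53. In the average these shares were 15.5% and 8.96%, and without p21 1.46% and 0.514%. Counts on short lists, such as those of the Paneth and myeloid markers, were not set apart from these shares. The crypt base markers Lgr5, Ascl2, Sox9 and Tnfrsf19 and the Paneth marker Mmp7 are also on the list of Wnt targets. The mean level of 13 absorptive enterocyte markers, of the cells where ephrin-B ligands are most abundant, ranged from 12.4 to 12.5 in CKIα Het/p53 KO and from 11.1 to 11.4 in CKIα KO/p53 KO, and 5 of 13 were called lower. That of 10 crypt base markers, of the cells where EphB receptors are most abundant, ranged from 6.93 to 6.94 and from 7.45 to 7.94 in these groups, and 4 of 10 were called higher (Cdca7, Msi1, Sox9 and Tnfrsf19). The stem cell marker Olfm4 was at -1.58 there and was called lower in the average (-1.31 ± 0.35, adjusted p = 0.0242), where 5 were called higher. Rgmb (-0.13) and Smoc2 (-0.10) did not pass without p53, and the stem cell receptor Lgr5 was at 0.91 without p53, -0.69 without p21 and -0.72 with both genes present, without passing. Of 6 Paneth markers 1, Mmp7, was called higher without p53 (2.73), while Ang4 (0.06), Itln1 (-0.03) and Defa24 (-0.09) did not pass, and the list median was 0.27 there, -0.15 in the average and -0.56 with both genes present. Without p21, 0 of 13 enterocyte, 0 of 10 crypt base and 0 of 6 Paneth markers were called by limma. Of them 2, 6 and 0 had an unadjusted p under 0.05. Among all 16721 tested genes, 3881 had such a p without p21 and 5773 without p53. Goblet cell markers were called lower in 5 of 7 without p53, in 2 of 7 without p21 (Atoh1 and Tff3) and in 6 of 7 in the average. In the average 7 of 13 enterocyte markers were also called lower. Of the lymphocyte and the fibroblast and smooth muscle markers 0 of 10 and 0 of 9 were called without p53 by limma, with 2 and 1 at an unadjusted p under 0.05, and of the myeloid markers 2 of 8 were higher. Without p21, 0 of 10 lymphocyte markers were called but 9 had such a p, and their mean level ranged from 6.62 to 7.19 in CKIα Het/p21 KO and from 5.46 to 6.17 in CKIα KO/p21 KO. The part of cell composition in the values of Ephb3 and Efnb1 was not tested.

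The genes whose values ran closest to a member over the 12 arrays were found by the root mean square difference after each gene was centred on its own mean. For Ephb3, whose own root mean square deviation was 0.97, they were Hunk, a protein kinase (0.22), Nhp2, a protein of small nucleolar particles (0.25), Btc, the growth factor betacellulin (0.25), and Gusb, the lysosomal β-glucuronidase (0.28). For Efnb1, with a deviation of 0.28, they were Luzp1 (0.10), the kinase Map3k1 (0.10), the corepressor Lcor (0.10) and the signalling protein Bcr (0.10). After a further quantile normalization, 3 of the 4 for Ephb3 and 1 of the 4 for Efnb1 were still among the 4 nearest. Hunk averaged 5.85 on the control arrays and 7.57 on the others, and Luzp1 8.51 and 7.93.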

How the data were processed

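Per the labels' protocols, RNA of 13 samples was hybridized to Affymetrix arrays, and the authors used RMA Sketch in Affymetrix Expression Console 1.1, followed by a normalization to median intensity. Their deposited values are taken here as log2 intensities, a base judged from the range of the values because it is not stated. For arrays, their number limits the precision.

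Platform annotation gave 21789 of 35556 probe sets 1 symbol, 1621 several and 12146 none; only the first were used, with the highest mean over 12 arrays where a gene had more than 1. Genes above the 25th percentile on at least 2 arrays were tested. By Entrez number, 16665 of 16721 matched RefSeq (GRCm38.p6), 0 with another symbol.

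The 12 arrays titled replicate 1 or 2 were fitted with limma 3.58.1 in R 4.3.3, with 6 group coefficients and 6 residual degrees of freedom. P-values are two-sided, adjusted by Benjamini-Hochberg over all tested genes, and called under 0.05. SE and 95% intervals are those of the fit, whose spread is pooled over groups. The fit was tested on simulated data. Beyond the members, up to 4 called genes of each list are named, or the 2 smallest p. Alternatives were no filter, quantile normalization, an intensity trend, a replicate block, the third array added, all probe sets averaged, and each array left out. Members and lists were chosen with earlier results of these data known. The alternatives for listed genes other than members were added after seeing the data.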

Additional observations from a re-analysis of the deposited data

Results flagged for a closer look

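The array titled replicate 3 of CKIα KO/p53 KO was not part of the reported fit, entering only an alternative that added it to CKIα KO/p53 KO, and 2 members stood above the control level on it. Ephb3 read 7.17 there, above all 6 CKIα Het arrays (5.21 to 5.70). Ephb4 read 7.58, above the same arrays (6.80 to 7.33). How many of all tested genes lay above these 6 arrays on the array titled replicate 3 was not counted. Its genotype label names a CKI knockout alone, so neither value can be assigned to a group.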

How the results depend on the processing

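Of 300 member values under the 6 alternatives that kept all 12 arrays, 296 kept their direction and call. Most of these directions were fixed in advance, so the count says little about them. With 1 probe set per member, no filter, the intensity trend, the replicate block and averaged probe sets cannot change a log2 difference, only its call. The third array can change it only in comparisons that use CKIα KO/p53 KO. The 4 reversals, all after a further quantile normalization, were Ephb4 (-0.050) and Efnb2 (-0.012) in CKIα KO against CKIα Het, Ephb6 without p53 (0.013) and Efnb2 in CKIα KO/p21 KO against CKIα KO (-0.0013); their cause was not tested. Without p53, Ephb3 ranged from 1.81 to 1.95 and Efnb1 from -0.71 to -0.54 over these alternatives, and both stayed called.

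Every group holds both a replicate 1 and a replicate 2 array, so the replicate block cannot change a log2 difference, only its adjusted p. Without p53 the limma adjusted p with the block was 0.0194 for Ephb3 and 0.0409 for Efnb1. The block changed no member's call. Among the listed genes, Pard6b without p53 lost its call with the block (limma adjusted p = 0.0511). Adam10 without p53 (adjusted p = 0.0453) and Prox1 without p21 (adjusted p = 0.0457) gained one. The numbers were not shown to pair the samples: same-numbered arrays deviated together (correlation over 0.1) in 5 of 15 pairs, and in 4 of 15 without genes of X and Y. They do part the arrays by Xist in each group, so the block also takes up whatever goes with Xist.

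With 1 array left out, its group's lone array is assumed to vary like the other groups. Of 600 member values 555 kept direction and call. In many of these fits the array left out was not part of the comparison, so the log2 difference could not change. The count therefore overstates how stable the values are. Members called ranged from 0 to 2 without p53 and from 0 to 1 without p21. Values that changed sign ranged as follows. In CKIα KO against CKIα Het, Ephb4 ranged from -0.24 to 0.25, Ephb6 from -0.094 to 0.28, Efnb2 from -0.067 to 0.14, Pard6b from -0.35 to 0.030 and Prox1 from -0.056 to 0.64. Without p21, Ephb6 ranged from -0.030 to 0.28 and Efnb2 from -0.18 to 0.090. Ephb6 ranged from -0.092 to 0.0095 without p53 and from -0.0027 to 0.12 in the average. In the difference of effects for p21, Ephb3 ranged from -0.040 to 1.54, Ephb6 from -0.15 to 0.22 and Efnb2 from -0.21 to 0.054, and for p53 Ephb6 from -0.32 to 0.053. In CKIα KO/p53 KO against CKIα KO, Ephb6 ranged from -0.27 to 0.10, and in CKIα KO/p21 KO against CKIα KO from -0.35 to 0.019, with Efnb2 from -0.093 to 0.17. Among CKIα Het arrays, p53 loss gave Ephb4 from -0.17 to 0.31, Ephb6 from -0.14 to 0.23, Efnb1 from -0.16 to 0.20 and Efnb2 from -0.080 to 0.27, and p21 loss Ephb4 from -0.28 to 0.25, Efnb1 from -0.031 to 0.33 and Efnb2 from -0.013 to 0.25. With 2 arrays per group, single-background calls rest on few arrays.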
